A study of Beta vulgaris with 9 samples.

Results

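Transcripts of uncertain coding potential (TUCPs) are assembled RNAs that are neither in the gene annotation nor cleanly sorted into coding or noncoding. The table of expression values from these sugar beet leaves gave this type to 1292 of its 43133 entries, and all 1292 were placed by the accompanying position table. All of them are described here, with no selection on their level or on their change. They stood beside 6034 intergenic lncRNAs (long noncoding RNAs between genes), 2501 antisense lncRNAs (on the strand opposite a gene) and 33302 protein-coding entries that remained after 4 identical repeats were removed. An assembled transcript is given this name in plant and animal lncRNA studies when tools that score codon use, similarity to proteins, protein domains or the evolution of codons do not give it a clear noncoding verdict. Such a set can hold unannotated genes, fragments of annotated ones, transposable elements and noncoding RNA that carries an open reading frame by chance.

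The study asked how leaf RNA responds to alkaline stress, the combined load of sodium, osmotic stress and high pH that carbonate salts impose. Seedlings of the cultivar KWS0143, 5 weeks old, grew hydroponically in Hoagland solution, a standard nutrient solution. Leaves of the same position were taken at day 0 (control), after 3 days in 75 mM mixed Na2CO3 and NaHCO3 (short-term) and after 7 days in it (long-term), with 3 biological replicates each. The libraries were strand-specific and made after depletion of ribosomal RNA. Control leaves were harvested at day 0 only, so the treatment cannot be told apart from leaf age and day of harvest.

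Values are FPKM, fragments mapped per transcript, divided by transcript length and by the mapped fragments of the library, as deposited by the authors. The depth of the libraries is not known here, so no counting interval can be given for low values. Total FPKM ranged from 1096070 to 1115390 over the control, from 1088390 to 1119080 over the short-term and from 915463 to 1038380 over the long-term libraries. On the first principal component of all tested transcripts (45.0% of the variance), control replicate 1 lay at -1.51, inside the short-term range of -22.4 to 3.81, while control replicates 2 and 3 lay at -62.3 and -81.0 and the long-term libraries between 26.9 and 70.9. The 14 genes with a chlorophyll a-b binding protein name, which mark green leaf, totalled 29444 to 39095 FPKM in control, 17880 to 25478 in short-term and 14057 to 22620 in long-term leaves. No gene was named as a Casparian strip membrane protein, the marker of root endodermis, and 3 genes with pollen in their name summed to between 5.31 and 30.2 FPKM over the 9 libraries. In whole leaves, fewer cells of a type and less RNA per cell cannot be told apart.

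TUCPs lay between lncRNAs and protein-coding transcripts in size and in reading frame. Their median length was 504 nucleotides (range 201 to 16171), against 260 for intergenic lncRNAs, 240 for antisense lncRNAs and 1667 for protein-coding transcripts. A single exon was given for 850 of them (65.8%), against 85.2% of the intergenic lncRNAs, 88.7% of the antisense lncRNAs and 15.3% of the protein-coding transcripts, and no TUCP had more than 9 exons. The open reading frame (ORF) listed for TUCPs had a median of 102 codons, against 64, 72 and 383 in the same order of classes. An ORF over 100 codons was listed for 662 TUCPs (51.2%), compared with 12.3% of intergenic lncRNAs, 16.6% of antisense lncRNAs and 98.2% of protein-coding transcripts. Over 300 codons the shares were 6.50% for TUCPs (84 transcripts), 0.298%, 1.56% and 64.8%. Coding potential is what set the class apart in the first place, so the longer reading frames describe how it was built and are not a result. In 393 TUCPs (30.4%) the reading frame ran to within 5 nucleotides of the full transcript length. The same held for 17.1% of intergenic lncRNAs, 40.3% of antisense lncRNAs and 17.8% of protein-coding transcripts.

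**Figure D1:**
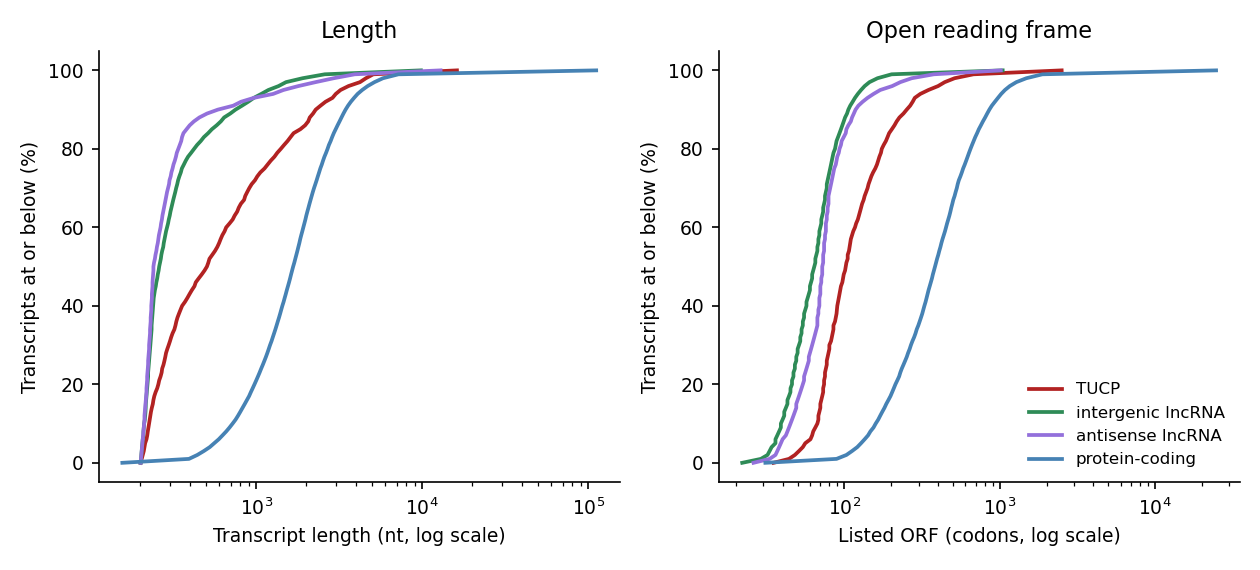
Share of transcripts (%) at or below a given length (left, nucleotides, log scale) or listed open reading frame (right, codons, log scale), drawn from percentiles of TUCPs, intergenic lncRNAs, antisense lncRNAs and protein-coding transcripts. The TUCP curve lies between the lncRNA curves and the protein-coding curve, with medians of 504 nucleotides and 102 codons.

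The longest reading frame was that of TUCP_000027, 2502 codons in a single exon of 7981 nucleotides at NC_025812.2:17317391-17325371 (plus strand). It overlaps the gene LOC109134872 on the opposite strand. Its level was 0.546, 2.17 and 1.26 FPKM in control, 2.68, 2.50 and 1.78 in short-term and 0.949, 6.16 and 2.01 in long-term leaves, and the groups overlapped. TUCP_000143 and TUCP_000103 carried ORFs of 1111 codons each and are the same stretch of NC_025813.2 read from opposite strands, at 29739499-29743062 (minus) and 29739473-29743062 (plus). Both belonged to the TUCPs that fell in long-term leaves.

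A large share of the TUCPs lay outside the chromosomes. The 9 chromosomes held 704 of them, 12 lay on the mitochondrial genome (NC_002511.2) and 576 (44.6%) lay on 378 unplaced sequences, which are pieces of the assembly without a chromosome. Unplaced sequences held 37.5% of the intergenic lncRNAs, 19.0% of the antisense lncRNAs and 24.2% of the protein-coding transcripts. Over the chromosomes the density ran from 1.46 TUCPs per Mb on NC_025812.2 to 2.36 on NC_025817.2. As many as 82 TUCPs began at the first base of their sequence, so that their true start may lie beyond it. No protein-coding gene was listed on the sequences of 283 TUCPs. A further 80 overlapped a gene, 5 of them one on the same strand and 76 one on the opposite strand, and 542 lay within 10 kb of a gene without overlap.

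TUCPs carried about as much FPKM as all other classes together in control and short-term leaves. Their share of all FPKM was 52.5, 53.0 and 53.9% in the control libraries, 54.1, 53.7 and 54.7% in the short-term libraries and 49.0, 38.7 and 47.5% in the long-term libraries. Short-term and control leaves overlapped, and every long-term library lay below every library of the other groups. The mean share was 54.2 ± 0.513% in short-term and 53.1 ± 0.723% in control leaves (SD, n = 3 each), a difference of 1.01 percentage points (two-sided exact permutation test, p = 0.2). Without the 10 highest TUCPs it was -1.86 points, and without the whole of locus XLOC_042718, described with the dominant loci, 0.207 points. It was 45.0 ± 5.58% in long-term leaves (SD, n = 3), lower than in control leaves by a difference of -8.10 points (p = 0.1, exact permutation test) and lower than in short-term leaves by a difference of -9.11 points (p = 0.1, exact permutation test). With 3 libraries against 3, 0.1 is the smallest p this test can give. Without long-term replicate 2 the difference from control leaves was -4.91 points. Without the whole of locus XLOC_042718 the mean share was 39.3% in long-term and 44.1% in control leaves. The long-term libraries again lay below all others, at most at 40.4% against at least 43.2%. In long-term replicate 2 the TUCPs of that locus held 2.97% of FPKM, and 7.29% with its lncRNA LNC_008161. This lncRNA is not counted in the TUCP share. How far that split lowered the share of this library was not tested.

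FPKM is divided by length, which raises short transcripts. FPKM multiplied by length gives the share of mapped fragments, and over all classes this product added up to between 95.1 and 97.4% of the mapped fragments in each library. By fragments the TUCPs took 31.3, 32.0 and 33.3% in control, 32.9, 31.5 and 32.6% in short-term and 27.9, 23.5 and 27.4% in long-term leaves. The long-term share was again below all other libraries, with a difference from control leaves of -5.90 points (p = 0.1, exact permutation test). Protein-coding transcripts took 63.3 to 65.7% of the fragments in control, 64.2 to 65.9% in short-term and 69.2 to 72.0% in long-term leaves.

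**Figure D2:**
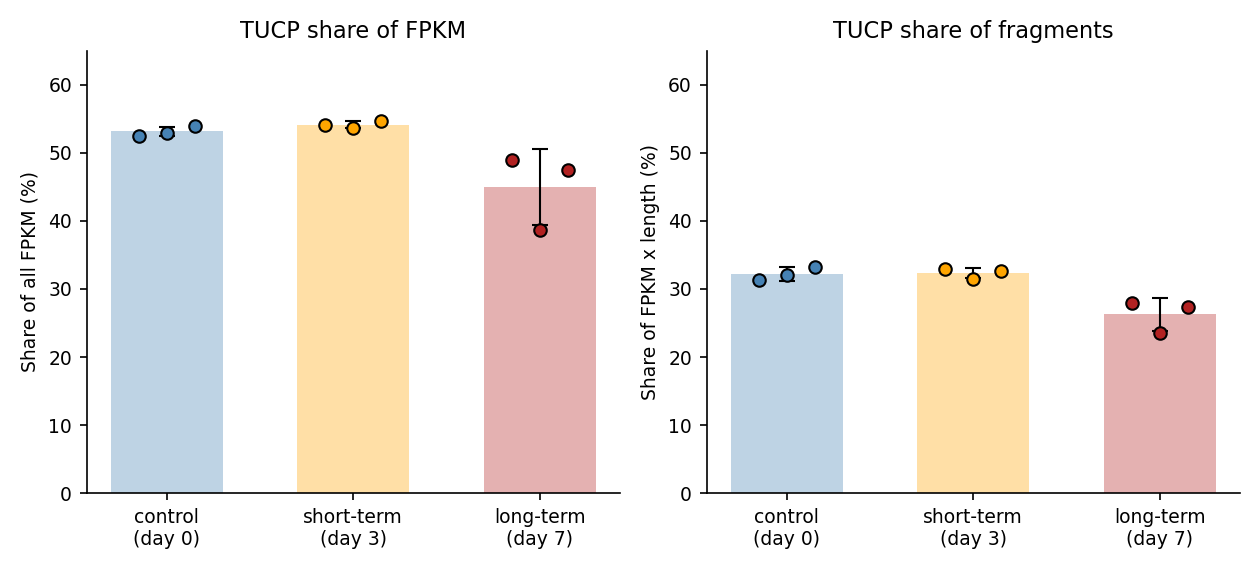
Share of TUCPs (%) in all FPKM of a library (left) and in FPKM times transcript length, which stands for fragments (right), with bars for means, error bars for SDs and points for the 3 libraries of control (day 0), short-term (day 3) and long-term (day 7) leaves. All 3 long-term libraries lie below the others, long-term replicate 2 the lowest at 38.7% of FPKM and 23.5% of fragments.

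The mean level of a TUCP was high and its median was not. Over the 9 libraries the mean was 420.6 ± 65.9 FPKM for TUCPs, against 13.7 ± 0.333 for protein-coding transcripts and 7.66 ± 1.58 for lncRNAs (SD, n = 9 libraries). It was higher than both in 9 of 9 libraries (p = 0.00391 by exact permutation of signs, which no p from 9 libraries can undercut). Among the transcripts that exceeded 0.5 FPKM as the mean of any group, the median TUCP was at 1.75 to 2.79 FPKM by library, below the 2.89 to 4.44 FPKM of protein-coding transcripts and above the 0.803 to 1.13 FPKM of lncRNAs. The difference in medians was -1.39 FPKM against protein-coding transcripts (p = 0.00391, exact permutation of signs). The means of these same transcripts were 663 ± 104 FPKM for TUCPs and 24.6 ± 0.595 for protein-coding transcripts (SD, n = 9 libraries). So the order of TUCPs and protein-coding transcripts turned round between mean and median, and the mean rested on a few members.

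A small number of loci held most of this signal. The 1292 TUCPs belonged to 1137 assembled loci, 69 of which gave several TUCPs (224 transcripts, up to 11 from a locus). With the 9 libraries pooled, 6 loci held 50% of the TUCP FPKM and 38 loci held 90%. In single libraries the 10 highest loci held between 48.9 and 67.6%. Of the 20 highest loci, 16 lay on unplaced sequences and 7 began at the first base of theirs. All unplaced sequences together held between 77.2 and 83.6% of the TUCP FPKM. At the other end, between 260 and 326 TUCPs were listed at 0 in a library, and only 142 to 153 were over 100 FPKM.

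Locus XLOC_042718 alone held 29.3% of the pooled TUCP FPKM. It lies on the unplaced sequence NW_017588110.1:187-561 (plus strand), on which no protein-coding gene is listed, and was assembled into 6 TUCPs of 2 exons each, 242 to 353 nucleotides long with ORFs of 62 to 73 codons. Summed over the 6 TUCPs, the locus was at 179881, 183172 and 169279 FPKM in control, 178503, 199484 and 207498 in short-term and 150589, 27234 and 137130 in long-term leaves. Long-term leaves were below all other libraries, most of all replicate 2. In the fit of locus sums, the log2 change in long-term leaves was -1.10 (SE 0.55, limma adjusted p = 0.149), and in short-term leaves 0.14 (SE 0.55, adjusted p = 0.911). A lncRNA of the same locus, LNC_008161 (11-561, 3 exons), was at 39463 FPKM in long-term replicate 2 and at most at 13.0 FPKM in any other library. With it, the locus reached 66697 FPKM in long-term replicate 2, which was still the lowest of the 9 libraries.

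Which of the 6 isoforms carried the signal differed from library to library, replicates of a group included. TUCP_001156 reached 150495 FPKM in long-term replicate 1 and 179881 in control replicate 1, but lay between 991 and 33775 in the other 7 libraries. TUCP_001152 was at 150940 FPKM in control replicate 2, 104337 in short-term replicate 1, 47387 in short-term replicate 3 and 26201 in long-term replicate 2, and was listed at 0 in the other 5. TUCP_001153 was at 185620 FPKM in short-term replicate 2, and 825 FPKM was its highest value elsewhere. TUCP_001154 was at 126336 in short-term replicate 3, 80734 in control replicate 3 and 37926 in long-term replicate 3, and TUCP_001155 was above 0 in control replicate 3 alone, at 86093 FPKM. TUCP_001151 led in long-term replicate 3, at 82952 FPKM. The 6 share their last base and overlap, so the split of reads among them is uncertain, and only the locus sum is used as a level. XLOC_037972 (NW_017567505.1:35036-35701, minus strand) showed such a change in a single library: TUCP_000924 was at 17339 FPKM in long-term replicate 1 and listed at 0 in the other 8 libraries, where TUCP_000923 held 95.7 to 100% of the locus.

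**Figure D3:**
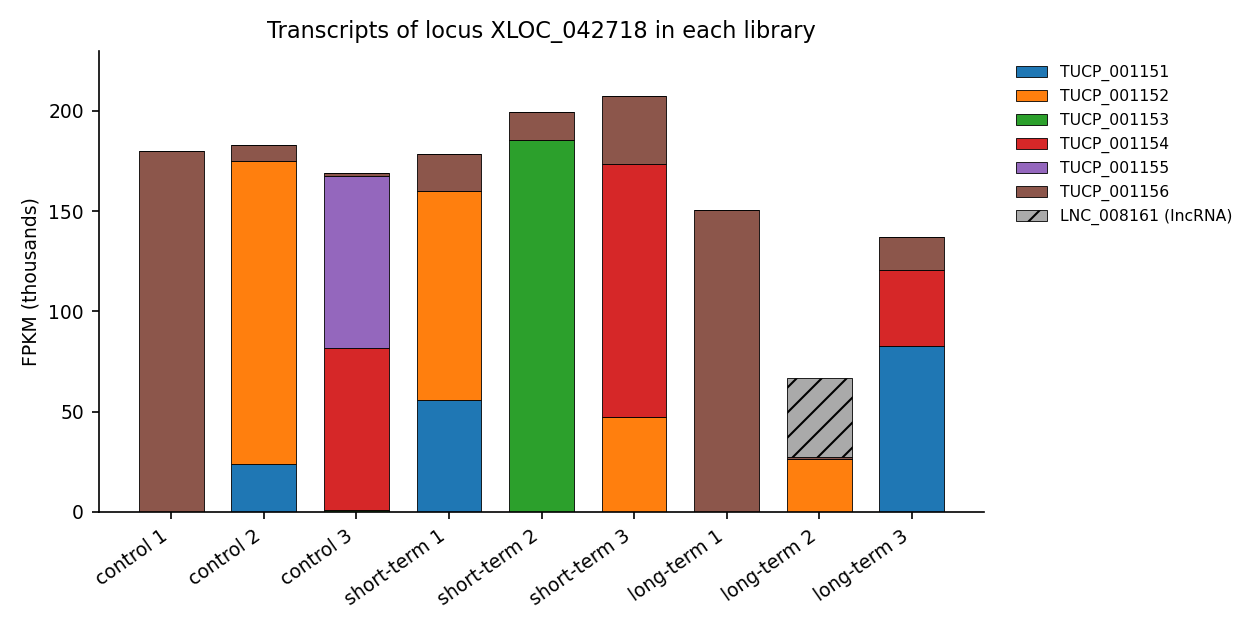
FPKM (in units of 1000) of the 6 TUCPs of locus XLOC_042718 and of its lncRNA LNC_008161 (hatched), stacked for each of the 9 libraries. The sum stays between 137130 and 207498 FPKM except in long-term replicate 2 (66697 with the lncRNA), while the isoform that fills the bar changes between replicates of a group.

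The other dominant TUCPs kept a steadier level within each group than the single isoforms of XLOC_042718. TUCP_000233 (NC_025815.2:24126212-24130119, plus strand, 2 exons, 511 nucleotides) was at 34450.2, 23728 and 35974 FPKM in control, 30558, 31121 and 30711 in short-term and 20867, 18232 and 23014 in long-term leaves. The long-term libraries were below the others, but the change missed the threshold (log2 change -0.58, SE 0.18, limma adjusted p = 0.0506). In the fit of locus sums, in which it is the only TUCP of XLOC_010030, the same change passed (adjusted p = 0.0281), so its call depends on the fit. TUCP_000767 (NW_017567371.1:509071-509307, plus strand) was at 24747, 24637 and 25701 FPKM in control, 29683, 26273 and 29138 in short-term and 25949, 20842 and 23248 in long-term leaves, and the long-term range covered that of control leaves. TUCP_001099 (NW_017578768.1:1-771, plus strand) was at 23779, 23458 and 24798 FPKM in control, 22911, 23365 and 22056 in short-term and 18785, 16375 and 18553 in long-term leaves. It fell in long-term leaves (log2 change -0.43, SE 0.11, limma adjusted p = 0.0323), as did TUCP_000832 (NW_017567443.1:11800-12135, adjusted p = 0.0329) at 20176, 17899.5 and 18176 FPKM in long-term and 25324, 23751 and 26931 in control leaves. Each of these calls was lost under 10 of 16 alternatives, among them a pseudocount of 0.1, no filter on low values, scaling to the same total and the leaving out of any control library or of long-term replicate 2 or 3, at adjusted p up to 0.318 without the filter. Both were also lost without short-term replicate 1, and TUCP_000832 without short-term replicate 2. In the fit of locus sums, where each is the only TUCP of its locus, both passed (limma adjusted p = 0.0116 for TUCP_001099 and 0.0122 for TUCP_000832). Of the 20 highest loci, 9 fell and 0 rose in long-term against control leaves in that fit. The share of all loci called in it is not given here.

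More TUCPs were detected in long-term leaves than in control leaves. The number over 0.5 FPKM was 708, 683 and 649 in control, 685, 687 and 701 in short-term and 718, 771 and 718 in long-term libraries. Long-term libraries averaged 735.7 ± 30.6 and control libraries 680.0 ± 29.6 TUCPs (SD, n = 3 each), a difference of 55.7 (p = 0.1, exact permutation test), and the groups did not overlap. Short-term libraries averaged 691 ± 8.72, a difference of 11 from control libraries that lay within their spread (p = 0.7, exact permutation test). Of the 1292 TUCPs, 1140 were over 0.5 FPKM in at least 1 library and 467 in all 9. Counts per library for the other classes are not given here, so the increase is not shown to be particular to TUCPs. The median log2 change of all transcripts tested was 0.22 in long-term against control leaves. The paper also lists more lncRNAs over 0.5 FPKM in long-term than in control leaves.

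The change of each TUCP was tested with limma on log2(FPKM + 1), in a fit of all transcripts and all 9 libraries, with p-values adjusted over all 21244 transcripts tested. Only transcripts whose mean exceeded 0.5 FPKM in any of the groups entered, which 819 TUCPs did and 473 did not. Adding 1 shrinks the change of low transcripts. The median log2 change of everything tested against control was 0.09 at day 3 and 0.22 at day 7, and each relative log2 change below is the change minus this median. The p-value tests the change before that subtraction.

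At day 3 no TUCP passed an adjusted p of 0.05 with all libraries weighted alike. In short-term against control leaves limma called 0 of 819 TUCPs, beside 0.08% of all transcripts tested (0.0565% higher and 0.0235% lower), and an unmoderated F-test as in Ballgown also called 0. With array weights, which give less weight to libraries that deviate from their group, 29 were called (7 higher, 22 lower), and without control replicate 1 there were 6, all lower. How many of all transcripts were called under these settings is not given here, so this lean is not shown to be particular to TUCPs. At an unadjusted p under 0.05, 54 TUCPs were higher and 88 lower in short-term leaves (6.59% and 10.7% of the 819), against 10.6% and 6.41% of all transcripts tested (17% in either direction). The short-term libraries lay wholly above the control libraries for 80 TUCPs and wholly below for 106, where 16.2% and 9.08% of all transcripts did so. TUCP_000683 (NC_025820.2:44196658-44197515, plus strand) had the smallest p. It was at 2.64, 1.76 and 1.88 FPKM in short-term and 6.78, 8.97 and 13.4 in control leaves, with no overlap (relative log2 change -1.85, limma adjusted p = 0.0645). Its neighbour LOC104904914 lies 2388 bp away on the same strand. That gene was at 2.65, 3.59 and 3.20 FPKM in short-term and 10.4, 12.3 and 9.91 in control leaves (limma adjusted p = 0.0244). Here and below, neighbouring genes were tested in the fit of locus sums, where transcripts of a gene are added up. Their p-values are therefore not from the same fit as those of single TUCPs. Both TUCP_000683 and LOC104904914 were between these levels in long-term leaves. TUCP_000306, described with the long-term risers, had the smallest p among those that were higher. TUCP_000493 (NC_025817.2:46614920-46615938, minus strand, 3 exons) was at 4.46, 4.26 and 2.67 FPKM in short-term and 1.27, 0.694 and 0 in control leaves (adjusted p = 0.0978), and was back at 0.801, 1.09 and 2.07 in long-term leaves.

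At day 7, 55 TUCPs rose and 85 fell. Long-term against control leaves thus gave 6.72% of the 819 tested TUCPs as higher and 10.4% as lower, while of all transcripts tested 16% were called higher and 5.05% lower, 21.1% in all (limma, adjusted p under 0.05). At an unadjusted p under 0.05, 129 were higher and 134 lower, beside 28.9% and 8.51% of all transcripts (37.4% in either direction). The groups did not overlap in 122 that were higher and 159 that were lower, beside 28.9% and 9.36%. Protein-coding transcripts leaned the other way, with 3230 higher and 868 lower of 18511 tested, and intergenic lncRNAs were even, with 103 and 104 of 1632. The median log2 change was 0.02 for TUCPs, 0.11 for intergenic lncRNAs and 0.24 for protein-coding transcripts. The balance of risers and fallers depended on the scale of the libraries. With libraries scaled by median ratios 29 TUCPs rose and 128 fell, and with every library brought to 1 total 101 rose and 56 fell. Of all transcripts tested, 1082 rose and 1648 fell with median ratios and 5506 rose and 831 fell with 1 total, so the general lean turned with median ratios. The median log2 change of TUCPs stayed below that of all transcripts, at -0.15 against 0.02 with median ratios and at 0.13 against 0.34 with 1 total. No TUCP was called in opposite directions, and 29 of the risers and 55 of the fallers were called under all 3 scalings.

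The fallers were abundant and the risers scarce. The 85 TUCPs that fell had a median of 69.6 FPKM in long-term and 108 FPKM in control leaves, and together held 20.3% of the pooled TUCP FPKM. The 55 that rose had a median of 6.53 FPKM in long-term and 2.01 FPKM in control leaves and held 0.440%. Of the 152 tested TUCPs with a mean over 100 FPKM, 40 fell and 6 rose. Of the 288 between 1 and 10 FPKM, 20 fell and 28 rose. The shares of all transcripts at these levels are not given here, so this pattern is not shown to be particular to TUCPs. Risers were longer (median 945 against 517 nucleotides), had longer ORFs (median 162 against 96 codons) and were more often spliced (19 of 55 against 12 of 85), as descriptions without a test. Control replicate 1 was the control library closest to the long-term side in 41 of the 55 and 65 of the 85. Without it 161 TUCPs were called, 69 higher and 92 lower. The count was 51 without control replicate 2, 40 without control replicate 3 and 50 without long-term replicate 2. How many of all transcripts were called in these fits is not given here. In all, 12 risers and 23 fallers were called under all 3 scalings and with each of the 9 libraries left out in turn.

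**Figure D4:**
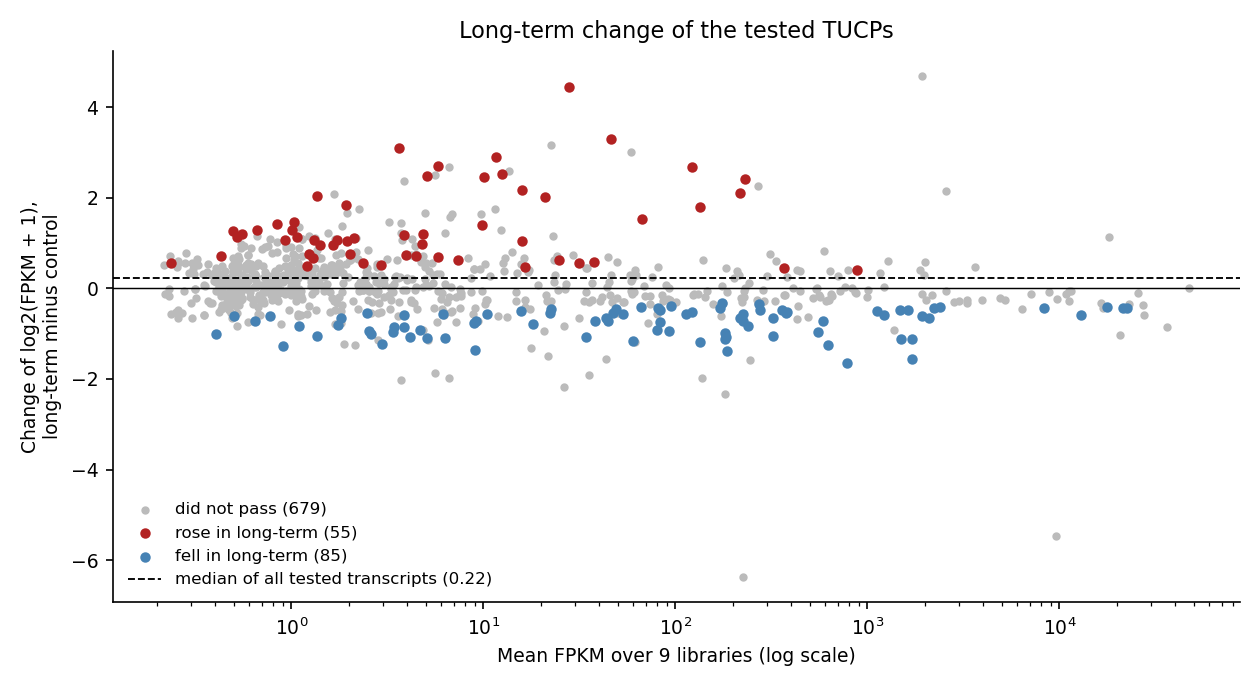
Change of log2(FPKM + 1), long-term minus control, against the mean FPKM over 9 libraries (log scale) for the 819 TUCPs tested, with the 55 that rose in red, the 85 that fell in blue, those that did not pass in grey and a dashed line at the median of all transcripts tested (0.22). Of the points over 100 FPKM, 40 are blue and 6 red.

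Among those 12 risers, TUCP_000374 had the smallest p of all TUCPs. This transcript of 7172 nucleotides in 2 exons (NC_025817.2:12600934-12608583, plus strand) was at 0.0743, 0.0482 and 0.0508 FPKM in control, 0.690, 0.350 and 0.789 in short-term and 4.26, 2.49 and 3.43 in long-term leaves, so that the 3 groups did not overlap (relative log2 change 1.81, SE 0.19, limma adjusted p = 0.00227). It shares locus XLOC_016903 with TUCP_000371, TUCP_000372 and TUCP_000373, which overlap it, so the split of reads among them is uncertain. No sum of that locus is given here. TUCP_000374 ends or begins 615 bp from LOC104895830, a bifunctional enzyme of thiamine synthesis on the same strand. That gene was at 9.61, 10.2 and 7.72 FPKM in long-term and 10.5, 10.3 and 10.5 in control leaves (limma adjusted p = 0.260). TUCP_000555, the longest TUCP at 16171 nucleotides (NC_025818.2:26152799-26169146, minus strand, 3 exons, ORF 296 codons), was at 8.33, 20.3 and 2.76 FPKM in long-term and 0.0647, 0.0916 and 0.0197 in control leaves (relative log2 change 2.88, SE 0.52, limma adjusted p = 0.00928). Its long-term replicates spread widely, yet all exceeded the short-term values of 0.402, 0.613 and 0.211.

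TUCP_000306 was the most abundant of the 12. It lies at NC_025816.2:44387823-44390047 (plus strand, 2 exons, 681 nucleotides, ORF 95 codons), and the nearest listed gene is 36710 bp away. It was at 91.2, 74.1 and 58.6 FPKM in control, 242, 216 and 259 in short-term and 389.8, 436 and 188 in long-term leaves. Both treated groups lay above all control libraries and overlapped each other. Its relative log2 change was 1.88 (SE 0.30, limma adjusted p = 0.00693) in long-term and 1.59 (adjusted p = 0.0861) in short-term leaves. TUCP_001242 (NW_017603054.1:773-1070, plus strand, 203 nucleotides) was at 9.41, 11.1 and 7.03 FPKM in control, 17.8, 12.0 and 7.42 in short-term and 38.0, 55.7 and 30.1 in long-term leaves, where short-term and control libraries overlapped (relative log2 change against control 1.81, adjusted p = 0.0084; long-term against short-term, adjusted p = 0.103).

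The remaining 8 risers of this set were at or below 1.24 FPKM in control leaves. TUCP_000593 (NC_025819.2:33009273-33010354) was listed at 0 in all control libraries and stood at 0.802, 2.19 and 2.29 FPKM in long-term and 0.981, 0.434 and 0.889 in short-term leaves. TUCP_000207 (NC_025814.2:23596942-23597860) was listed at 0 in all control and short-term libraries and stood at 1.87, 2.02 and 0.585 FPKM in long-term leaves. It passed the filter of 0.5 FPKM through the long-term group alone. Its mean over the 9 libraries was 0.497 FPKM, so the alternative filter on that mean left it out. TUCP_000187 and TUCP_000989 were also up. TUCP_000187 was at 2.02, 2.80 and 1.76 FPKM in long-term and 0.227, 0.137 and 0.0863 in control leaves. TUCP_000989, a spliced transcript of 7639 nucleotides, was at 1.65, 2.13 and 1.17 FPKM in long-term and 0.150, 0.0282 and 0.0418 in control leaves. TUCP_000989 and TUCP_000555 also passed the filter through the long-term group alone. TUCP_000374, which had the smallest p, TUCP_000593 and TUCP_000187 passed it through treated groups alone. The filter thus drew on the values that were tested. TUCP_000628 and TUCP_000127 carry the longest reading frames of the set (424 and 409 codons). TUCP_000628 lies 492 bp from LOC104901941, translocase of chloroplast 90, a component of the import gate for plastid proteins, and was at 2.94, 3.22 and 3.08 FPKM in long-term and 1.24, 1.19 and 0.549 in control leaves (adjusted p = 0.00908).

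Another 7 risers lost their call when single libraries were left out. TUCP_000314 (NC_025816.2:52115391-52116244, plus strand) was at 14.0, 0.126 and 0.213 FPKM in control, 5.83, 14.8 and 7.42 in short-term and 23.6, 76.0 and 109 in long-term leaves, the largest relative log2 change of the called TUCPs (4.22, SE 0.99, limma adjusted p = 0.0205). Control replicate 1 was far above the other controls and within the short-term range. TUCP_000217, TUCP_000114, TUCP_001051, TUCP_001292, TUCP_000459 and TUCP_000271 had control replicate 1 highest among the controls and long-term replicate 1 lowest among the long-term libraries as well, for example TUCP_001051 at 11.6, 33.7 and 32.8 FPKM in long-term and 7.01, 2.80 and 1.55 in control leaves. All 7 calls were lost without control replicate 2, without control replicate 3 or without long-term replicate 2, at adjusted p between 0.0504 and 0.0981. The log2 change stayed between 1.85 and 4.25 in these fits, against 2.17 to 4.44 with all libraries. TUCP_000217 lies 3824 bp from LOC104890663, a glucose-6-phosphate dehydrogenase of the pentose phosphate pathway, which did not pass (adjusted p = 0.111).

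The fallers with the largest change included some of the more abundant TUCPs. TUCP_000112 (NC_025813.2:37841675-37842013, plus strand, 339 nucleotides, ORF 112 codons) was at 2039, 2835 and 3593 FPKM in control, 1376, 1684 and 1142 in short-term and 1028, 828 and 931 in long-term leaves (relative log2 change -1.79, SE 0.22, limma adjusted p = 0.00693). The 3 groups did not overlap. The gene LOC104887628, 7105 bp away on the same strand, went the other way and was at 82.1, 150.3 and 239 FPKM in long-term and 60.5, 11.0 and 7.92 in control leaves (adjusted p = 0.0153). TUCP_000987 (NW_017567606.1:114458-114848, minus strand) was at 892, 1421 and 1683 FPKM in control, 658, 717 and 451 in short-term and 386, 402 and 439 in long-term leaves (relative log2 change -1.87, SE 0.25, adjusted p = 0.00765). TUCP_001229 and TUCP_001230 lie 160 bp apart on the minus strand of NW_017602303.1 (276-998 and 1158-1604) and both fell, TUCP_001229 to 125, 88.0 and 96.0 FPKM in long-term against 222, 237 and 359.7 in control leaves, and TUCP_001230 to 382, 340.1 and 454 against 750.2, 945 and 1106.

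Low TUCPs fell as well. TUCP_000712 (NC_025820.2:41290364-41290958, minus strand) was at 0.879, 1.49 and 0.906 FPKM in control and 0, 0.181 and 0.101 in short-term leaves. In long-term leaves it was at 0.0908, 0 and 0 FPKM (relative log2 change -1.23, SE 0.16, limma adjusted p = 0.0087). It passed the filter of 0.5 FPKM through the control group alone. Its mean over the 9 libraries was 0.405 FPKM, so the alternative filter on that mean left it out. TUCP_001271 (NW_017604925.1:683-1199, minus strand) was at 9.66, 9.10 and 11.0 FPKM in control, 5.70, 5.15 and 4.03 in short-term and 4.74, 3.74 and 3.86 in long-term leaves (relative log2 change -1.32, SE 0.15, adjusted p = 0.00685). TUCP_000571, a spliced transcript with an ORF of 344 codons, was at 0.394, 0.369 and 1.09 FPKM in long-term and 2.22, 2.18 and 2.53 in control leaves (adjusted p = 0.0112).

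**Figure D5:**
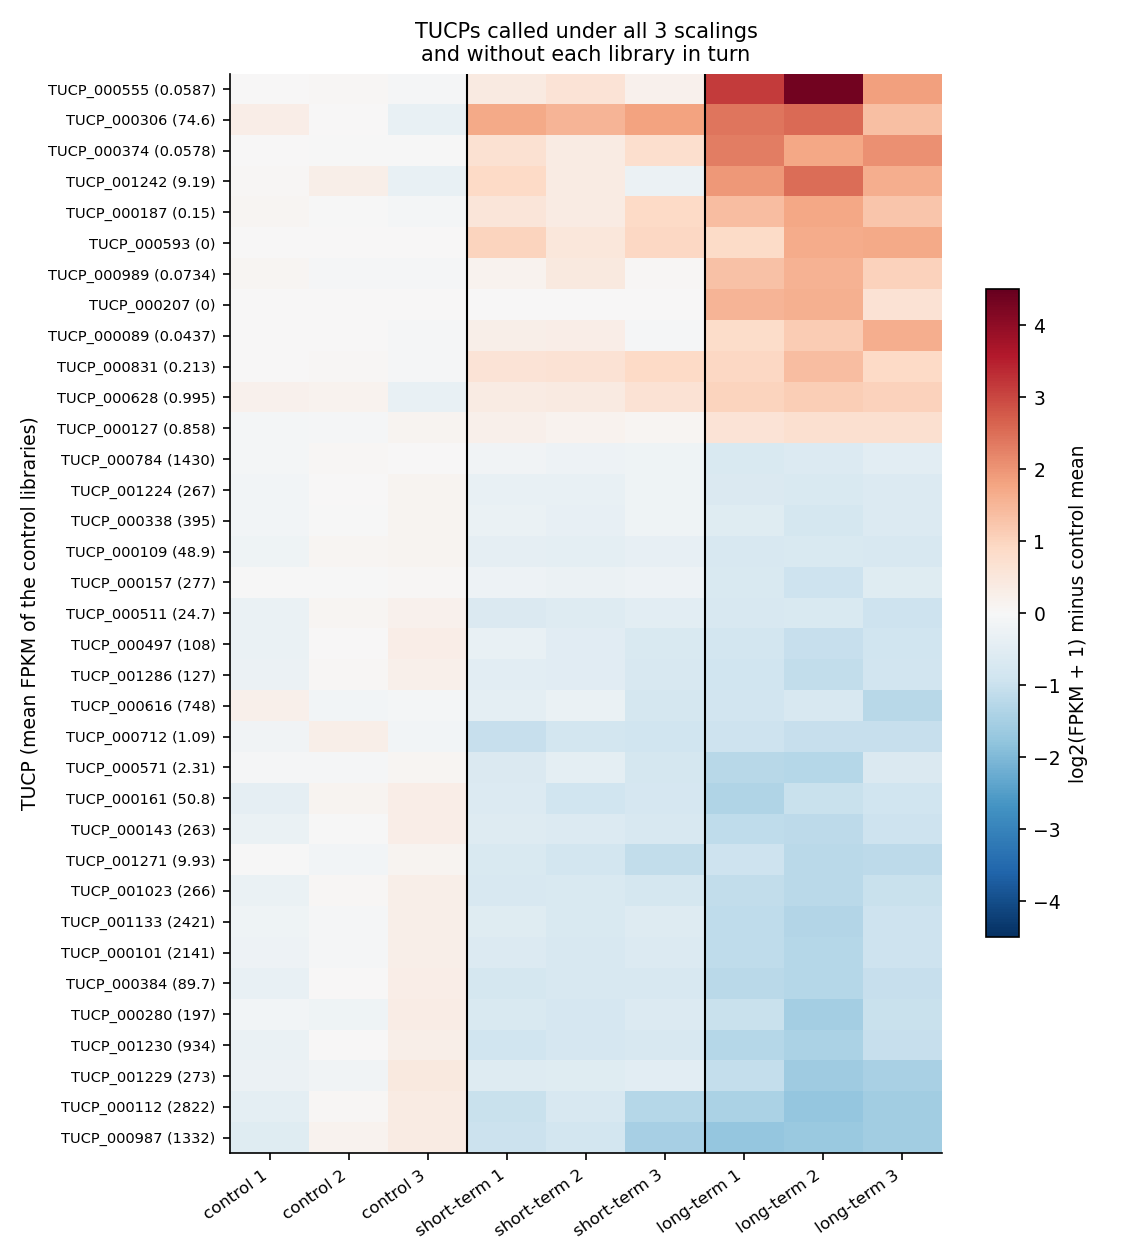
Level of the 12 risers (upper rows) and 23 fallers (lower rows) that were called in long-term leaves under all 3 scalings and without each library in turn, as log2(FPKM + 1) minus the mean of the control libraries, for each of the 9 libraries, with the mean FPKM in control leaves beside each name. The TUCPs shown were chosen for their long-term change, and control means run from 0 to 2822 FPKM.

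Several fallers kept almost the same ratio to each other in every library. This was noticed after the values were seen and is given as a description. TUCP_001133 (NW_017584816.1:1-673) was at 1.11 to 1.18 times the level of TUCP_000101 (NC_025813.2:27218332-27218969) in all 9 libraries, while both varied more than 2-fold across them, TUCP_000101 at 1819, 2058 and 2546 FPKM in control, 1378, 1297 and 1384 in short-term and 961, 861 and 1105 in long-term leaves. TUCP_000143 stayed at 0.114 to 0.133 and TUCP_001023 at 0.108 to 0.132 times TUCP_000101, from other loci. These 4 and TUCP_001230 formed a group linked by pairs whose log2 ratio had an SD under 0.1 over the 9 libraries, and all 5 fell. TUCPs with such steady ratios must change nearly alike, so a shared direction within a group is not a separate result. Of the 11476 pairs among the 152 TUCPs with a mean over 100 FPKM, 331 (2.88%) were that steady. They linked 86 TUCPs, 69 of them in a single group of 68 loci on 57 sequences, of which 18 fell and none rose, beside 40 that fell and 6 that rose among the 152. The ratios share libraries and totals, and whether these transcripts share sequence was not tested.

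Both strands of the region of NC_025813.2 with the ORFs of 1111 codons were lower in long-term leaves. TUCP_000143, on the minus strand, was at 212, 255 and 322 FPKM in control, 174, 169 and 158 in short-term and 116, 114 and 137 in long-term leaves (relative log2 change -1.30, SE 0.15, limma adjusted p = 0.00693). TUCP_000103, on the plus strand, was at 94.1, 95.5 and 99.8 FPKM in control, 78.2, 91.3 and 84.2 in short-term and 77.4, 62.2 and 69.1 in long-term leaves (relative log2 change -0.69, SE 0.11, adjusted p = 0.0219). The difference between the strands was not tested. Of the 80 tested TUCPs with an ORF over 300 codons, 7 rose and 9 fell at day 7 (8.75% and 11.2%), beside 6.72% and 10.4% of all TUCPs tested. TUCP_000474, with 762 codons in 2288 nucleotides (NC_025817.2:26297292-26299579, minus strand), was at 0.944, 0.594 and 0.406 FPKM in control, 1.85, 2.15 and 2.33 in short-term and 1.65, 2.11 and 2.79 in long-term leaves (relative log2 change 0.73, SE 0.18, adjusted p = 0.0136). TUCP_001021, with 809 codons, was at 1.91, 2.53 and 0.832 FPKM in long-term and 4.17, 4.39 and 7.53 in control leaves (adjusted p = 0.0264). The call of TUCP_000474 was lost without control replicate 3 (adjusted p = 0.0551), and that of TUCP_001021 without control replicate 2, control replicate 3 or long-term replicate 3 (adjusted p between 0.0591 and 0.0911).

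The mitochondrial TUCPs were few and mostly long, with a median of 4433 nucleotides, and no protein-coding transcript was listed on that genome. The 12 of them summed to between 1352 and 1585 FPKM in control, between 1564 and 1771 in short-term and between 1711 and 1914 in long-term leaves. TUCP_000009 (NC_002511.2:296821-301270, minus strand) rose in long-term leaves. It was at 791, 747 and 726 FPKM in control, 938, 887 and 899.9 in short-term and 1044, 991 and 969 in long-term leaves (relative log2 change 0.19, SE 0.09, limma adjusted p = 0.0178), and the 3 groups did not overlap. The call was lost under median-ratio scaling and without control replicate 2, control replicate 3 or long-term replicate 2. TUCP_000008, of 13814 nucleotides, was at 189, 153 and 161 FPKM in control, 228, 262 and 232 in short-term and 209.9, 186 and 189 in long-term leaves. It passed in neither comparison with control (adjusted p = 0.103 at day 3 and 0.188 at day 7). TUCP_000011 and TUCP_000012, which span the same interval, shifted between each other: in short-term replicate 2 TUCP_000011 was listed at 0 and TUCP_000012 was at 363 FPKM, above its 119.9 to 193 FPKM in the other libraries.

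Between long-term and short-term leaves no TUCP passed with all libraries weighted alike. Limma called 0 of 819 TUCPs, beside 0.00941% of all transcripts tested (all of them higher, and 0 lower), and the F-test as in Ballgown also called 0. Array weights gave 14 calls (8 higher, 6 lower), and leaving out long-term replicate 1 or 3 gave 6 and 9. For these settings too, the share of all transcripts called is not given here. At an unadjusted p under 0.05, 78 TUCPs were higher and 81 lower in long-term leaves (9.52% and 9.89%), against 16.3% and 5.07% of all transcripts tested (21.4% in either direction). Without overlap of the groups, 101 were higher and 114 lower, beside 20.9% and 6.72%. TUCP_000374 had the smallest p (relative log2 change 1.31, adjusted p = 0.0778). TUCP_000189 (NC_025814.2:11000859-11001622, minus strand) was at 12.4, 10.5 and 8.78 FPKM in control, 8.78, 17.6 and 12.1 in short-term and 2.41, 3.09 and 5.37 in long-term leaves, with every long-term library below all others (long-term against short-term, adjusted p = 0.101; long-term against control, adjusted p = 0.0182). The call against control was lost without control replicate 2 or long-term replicate 2. Its neighbour LOC104888767, an enoyl-CoA isomerase of fatty acid breakdown 3846 bp away on the opposite strand, did not pass against control (adjusted p = 0.160).

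For the TUCPs named by rule, 22 pairs with the closest protein-coding gene within 10 kb were examined, and the gene was high enough to be tested in 15 of them. In long-term leaves 3 of these genes rose and 3 fell in the fit of locus sums. The share of all genes called in that fit is not given here. In the fit of transcripts, 16% of all transcripts were called higher and 5.05% lower, which is not the same measure. Where both partners were called, the TUCP in the fit of transcripts and the gene in that of locus sums, they moved alike in 1 pair. They moved in opposite ways in 4. The pair that fell together was TUCP_001021 and LOC104885043, whose listed name begins with glucan endo, which was at 35.2, 25.4 and 17.5 FPKM in long-term and 43.2, 52.3 and 63.6 in control leaves (adjusted p = 0.0162). TUCP_000781 overlaps LOC104907118, a probable quinone reductase (FQR1-like), on the opposite strand. TUCP_000781 was at 2.07, 1.39 and 2.22 FPKM in long-term and 3.32, 4.83 and 4.52 in control leaves (adjusted p = 0.0165), while LOC104907118 was at 23.3, 39.3 and 38.3 FPKM in long-term and 25.8, 11.5 and 14.7 in control leaves (adjusted p = 0.0339). Control replicate 1 of that gene lay inside its long-term range, and the call of TUCP_000781 was lost without control replicate 2, control replicate 3 or long-term replicate 2 (adjusted p between 0.0583 and 0.0640).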

How the data were processed

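RNA of sugar beet leaves was measured in 9 libraries, 3 per group, grouped by the sample labels. The authors used HISAT2 for alignment and StringTie 1.3.1 for assembly (per the labels), and deposited FPKM per transcript. The methods also name Cuffdiff, and which program made the deposited FPKM was not settled. The genome build was not given in the sources used here, and coordinates are those of the deposited position tables, which also list exons, lengths and ORFs. FPKM divides by length and by library, so values are relative, and depth is unknown.

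Rows that repeated an identifier with identical values (4) were kept once. Shares of structure use the 32734 protein-coding transcripts of the position table. FPKM entered limma 3.58.1 (R 4.3.3) as log2(FPKM + 1), with a mean per group, a trend and Benjamini-Hochberg adjustment over all 21244 transcripts whose mean was over 0.5 FPKM in a group, and a threshold of 0.05. The fit was tested on simulated data. Values per library were compared with two-sided exact permutation tests in Python 3.11.15 with scipy 1.17.1. The labels call the replicates biological without naming separate plants, so p-values measure only the spread between these samples.

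TUCPs named by rule were the 10 with the highest FPKM, up to 10 risers and 10 fallers with no overlap and a mean of at least 1 FPKM, where fewer than 3 passed the 5 smallest p each way, and their nearest protein-coding genes within 10 kb. Others, among them those called under all scalings, with long ORFs or with steady ratios, were chosen after their values were seen. The members and lists were chosen with earlier results of these data known. Gene symbols were matched in RefSeq tables of assembly EL10.2, whose coordinates were not used. Alternatives covered scaling, pseudocount, filter, test, replicate block and leaving out each library. Nearest genes were tested in the limma fit of locus sums, and single TUCPs in the fit of transcripts. Sequences were not analysed here.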

Additional observations from a re-analysis of the deposited data

How the results depend on the processing

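In all, 20 settings were tried. The number of TUCPs called in long-term against control leaves was 140, and between 95 and 195 under the other pseudocount, filters, scalings and tests, except that it was 61 (24 higher, 37 lower) when only both groups were fitted. With the replicate number as a replicate block it was 55 (20 higher, 35 lower), and 0 in both other comparisons. Same-numbered libraries did not deviate together (correlations between -0.33 and 0.11). With 3 libraries per group, this cannot exclude that the numbers pair the samples, and the main fit used no pairing. Leaving out each library gave 40 to 161 calls. In short-term against control leaves it gave 0 to 6 calls and in long-term against short-term leaves 0 to 9, and array weights gave 29 and 14. The cause was not tested. The difference in TUCP share ran from -10.1 to -4.91 points for long-term against control, from -11.1 to -5.92 for long-term against short-term and from 0.706 to 1.41 for short-term against control leaves. The short-term share turned to -1.86 points without the 10 highest TUCPs, which leaves in TUCP_001155, an isoform of locus XLOC_042718 at 86093 FPKM in control replicate 3 alone. It was 0.207 points without that whole locus. The long-term mean share without that locus was 39.3%, against 44.1% in control leaves. The short-term difference in TUCPs over 0.5 FPKM ran from -4.5 (without control replicate 3) to 25, and the long-term difference from 38.0 to 69.7. The TUCP level minus the protein-coding level was positive for means, over all transcripts and over those tested. For medians of the transcripts tested it was -1.39 FPKM. Sums per locus, shares of fragments and shares without locus XLOC_042718 were chosen after seeing the data. Summed per locus, 180 calls were made, which count loci and cannot be set beside the 140 calls of single TUCPs. The number of loci tested, the directions and the share of all called in that fit are not given here. Nor is the share of all transcripts called under settings other than the main fit and the scalings. Of the alternatives for single TUCPs, 684 kept direction and side of the threshold, 77 lost the call and 37 gained one.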
